A study of Saccharomyces cerevisiae with 8 samples.

Results

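Messenger RNA levels of 32 antioxidant and thiol redox genes were compared between Malaysian and wine/European populations of the budding yeast *Saccharomyces cerevisiae*, and between the Malaysian and wine/European alleles of the same genes inside hybrid diploids. The genes were taken by a fixed list of open reading frames and not by a rule on their values, though earlier results of these data were known when the list was chosen. It holds the catalases, superoxide dismutases, thioredoxins, peroxiredoxins, glutathione peroxidases, glutaredoxins and glutathione enzymes, the methionine sulfoxide reductases, the old yellow enzymes *OYE2* and *OYE3*, the NADPH-forming enzyme *ZWF1*, and the regulators *YAP1* and *SKN7*. All 32 of them were found among the 5797 genes of the tables, and all 32 passed the filter on low values in both tables.

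The study sequenced poly-A RNA from 8 diploid MATa/α strains, each grown once to mid-log phase in rich YPD medium with glucose at 30 °C, with no added stress agent. The Malaysian parents, 3 in number and each labelled HO, were UWOPS05.227.2, UWOPS05.217.3 and UWOPS03.461.4. Wherever 3 Malaysian values are listed against 2 wine/European ones below, they stand in the order UWOPS03.461.4, then UWOPS05.217.3, then UWOPS05.227.2, against BC187, then RM11-1, and 3 hybrid values stand in the order YHL058, YHL063, YHL065. The 2 wine/European parents were BC187, labelled HO, and RM11-1, a cross of RM11-1a with RM11-1b that carries *ura3* and ho::kanMX. The study's strain list also gives RM11-1 as lys2/LYS2 and leu2/LEU2. The 3 hybrids were YHL058, from UWOPS03.461.4 and RM11-1b, YHL063, from UWOPS03.461.4 and BC187, and YHL065, from UWOPS05.217.3 and BC187. That list gives YHL058 as HO/ho::kanMX and the other hybrids as HO. YHL058 and YHL063 thus shared a Malaysian parent, and YHL063 and YHL065 shared a wine/European parent. By the read totals given with the study, YHL065 stood apart as by far the shallowest of the hybrid libraries, so its values were scaled up the most and rest on the fewest reads. Each strain gave 1 library, so strains served as the replicates of a population, and the spread between them holds both strain differences and culture differences, which cannot be told apart.

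Reactive oxygen species arise as by-products of respiration and of metal chemistry, and cells remove them in steps. Superoxide dismutases turn superoxide into hydrogen peroxide, which catalases, peroxiredoxins and glutathione peroxidases then reduce. Thioredoxin and glutathione carry the electrons for the thiol-based enzymes and are themselves kept reduced by NADPH. In yeast the transcription factor Yap1 is activated by peroxide through the Hyr1 sensor and, often together with Skn7, induces many of these genes, whereas the stress factors Msn2 and Msn4 act on others such as *CTT1*.

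Promoter windows are shown for 4 genes on which the results below turn: *GPX2* and *DOT5*, called in both parents and hybrids, *CTT1*, called in the parents and not between alleles, and *OYE2*, whose allelic ratio changed with the wine/European parent. Each window is the 300 bases from 400 to 101 bases before the start codon in the S288C reference (R64 assembly, NCBI RefSeq), not in the sequenced strains, and is written 5′ to 3′ along the gene's own strand. Capitals mark the Yap1 element TTACTAA and the stress response element AGGGG, each on either strand, and the Hap1 site of *DOT5*. The windows lie at chrII:707128-707427 for *GPX2*, chrIX:334482-334781 for *DOT5*, chrVII:654234-654533 for *CTT1* and chrVIII:462102-462401 for *OYE2*, and all 4 genes lie on the plus strand.
GPX2: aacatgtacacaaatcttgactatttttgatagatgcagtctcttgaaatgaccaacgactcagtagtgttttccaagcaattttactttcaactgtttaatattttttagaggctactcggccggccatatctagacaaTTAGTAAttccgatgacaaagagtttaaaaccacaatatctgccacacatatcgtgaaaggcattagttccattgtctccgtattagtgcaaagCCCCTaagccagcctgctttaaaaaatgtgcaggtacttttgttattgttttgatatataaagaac
DOT5: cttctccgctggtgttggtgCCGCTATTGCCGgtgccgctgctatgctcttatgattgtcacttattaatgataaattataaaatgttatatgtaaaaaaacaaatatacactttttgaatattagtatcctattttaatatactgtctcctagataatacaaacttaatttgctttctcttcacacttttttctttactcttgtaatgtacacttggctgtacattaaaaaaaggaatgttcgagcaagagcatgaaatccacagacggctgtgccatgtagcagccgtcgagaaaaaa
CTT1: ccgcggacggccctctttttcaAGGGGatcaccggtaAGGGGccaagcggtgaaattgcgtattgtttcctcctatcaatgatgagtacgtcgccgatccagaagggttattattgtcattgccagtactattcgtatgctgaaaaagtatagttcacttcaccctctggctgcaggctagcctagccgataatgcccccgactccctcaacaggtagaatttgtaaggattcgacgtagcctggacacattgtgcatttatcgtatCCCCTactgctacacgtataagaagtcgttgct
OYE2: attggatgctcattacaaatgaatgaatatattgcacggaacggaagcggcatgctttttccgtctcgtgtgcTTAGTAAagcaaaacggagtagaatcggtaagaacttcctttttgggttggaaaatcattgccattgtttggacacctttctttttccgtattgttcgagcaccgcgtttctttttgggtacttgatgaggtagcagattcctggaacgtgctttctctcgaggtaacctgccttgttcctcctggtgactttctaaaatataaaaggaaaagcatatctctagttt

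The *GPX2* window held 1 Yap1 element and 1 stress response element, the *CTT1* window held 3 stress response elements, and the *OYE2* window held 1 Yap1 element. Of the *DOT5* window, 55 bases lay inside a neighbouring gene, and the Hap1 match was in that stretch. Over all members, 11 of 32 windows (34.4%) held TTACTAA, against 7.01% of the 5791 windows scanned across the genome. Of these 11, the *GRX2* window lay over another coding sequence for all 300 bases, that of *TRX2* for 125, *CTA1* for 91 and *GLR1* for 68. The genes were listed by function, and Yap1 is known to induce many of them, so this share is not independent of the choice. AGGGG was found in 13 member windows (40.6%), against 23.7% of all windows. The variant TGACTAA was found for *TSA2*, *TRR1*, *GSH1* and *ZWF1* (12.5% of members, 3.76% of all windows), the palindrome TTACGTAA for *PRX1* alone (3.12% against 0.967%), and the Hap1 site for *DOT5* alone (3.12% against 0.224%). These are matches of letters in a reference sequence and not measured binding sites, and no match in a member window overlapped another.

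Values below are normalized read counts, which were scaled to a common upper quartile within a table, so that parents and hybrids are on different scales. A difference is a log2 difference between Malaysian and wine/European means of log2(value + 1), with its standard error (SE), and adjusted *P* values come from limma with the Benjamini-Hochberg correction over all genes tested. In the parents, 5 of the 32 genes were called higher in the Malaysian strains at an adjusted *P* under 0.05 (15.6% of members, against 5.06% of all 5792 genes tested), namely *CTT1*, *GPX2*, *GRX1*, *DOT5* and *MXR1*. No member was called lower by limma at an adjusted *P* under 0.05, against 5.82% of all genes. At an unadjusted limma *P* under 0.05, 11 members were higher and 0 lower. The share of all genes at that unadjusted threshold was not computed, here or for the counts below. For 19 members every Malaysian strain lay above both wine/European strains (59.4%, against 26.5% of all genes). Only *CTA1* lay below them in every Malaysian strain (3.12%, against 22.4%). The median log2 difference over the members was 0.23, and over all genes it was 0.03.

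**Figure D1:**
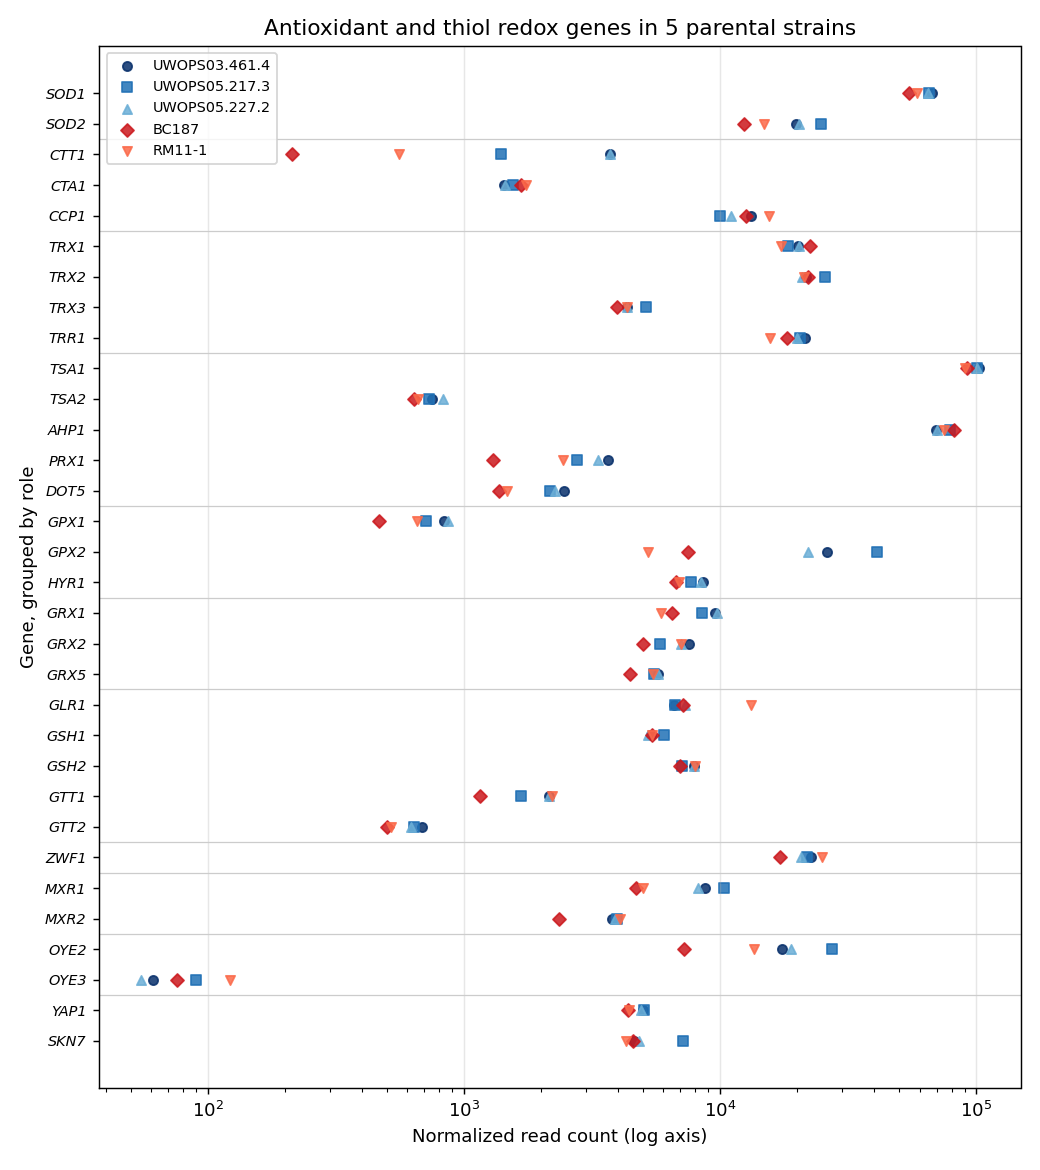
Normalized read counts of the 32 genes in the 5 parental strains on a log axis, with genes grouped by role and 1 point per strain (blue for Malaysian, red for wine/European). *GPX2* lay between 22096 and 40869 in the Malaysian strains and at 5206 and 7505 in the wine/European strains, whereas *TSA1* and *AHP1* stood near the right end in all 5.

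The levels of the 32 genes, per kilobase of coding sequence and averaged over the 5 parents, ran from 67.17 for *OYE3* to 164129 for *TSA1*. The main cytosolic peroxiredoxin *TSA1* was followed by *AHP1* at 141605 and *SOD1* at 133382 normalized counts per kilobase, then by the thioredoxins *TRX2* at 70653 and *TRX1* at 63197. *GPX2* came next at 41684. *CTT1*, at 1137 per kilobase, ranked 29 of 32 in spite of the largest fold difference.

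The catalases and the cytochrome c peroxidase remove hydrogen peroxide with a heme group. *CTT1* (YGR088W, chromosome VII), the cytosolic catalase that is induced by many stresses, was at 3724 in UWOPS03.461.4, 1393 in UWOPS05.217.3, 3719 in UWOPS05.227.2, 213 in BC187 and 557 in RM11-1. All 3 Malaysian strains lay above both wine/European strains, with UWOPS05.217.3 the lowest of the 3 and BC187 the lowest of all. The log2 difference was 2.96 (SE 0.60, limma adjusted *P* = 0.0376), a 7.65-fold ratio of the means. In the hybrids no such difference was measured. The Malaysian allele of *CTT1* was at 123, 142 and 115 and the wine/European allele at 132, 116 and 130. The alleles overlapped, their order changed between hybrids, and the log2 allelic ratio was 0.00 (SE 0.17, limma adjusted *P* = 0.999). The gap between the parental and the allelic value was not tested, here or for any other gene, because the tables were normalized separately. The *CTT1* call did not hold in the parents when UWOPS03.461.4, UWOPS05.227.2 or BC187 was left out, with limma adjusted *P* values of 0.136, 0.137 and 0.0921.

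*CTT1* followed the median of a list of 18 other general stress genes, targets of Msn2 and Msn4, across the 5 parents. The list median, as log2 deviation from each gene's mean over the strains, was 1.16 in UWOPS03.461.4, -0.10 in UWOPS05.217.3, 1.14 in UWOPS05.227.2, -1.70 in BC187 and -0.46 in RM11-1, which is the order of the strains for *CTT1*. Of the 18 genes, 17 were higher in the Malaysian strains (against 53.2% of all genes) with a median log2 difference of 1.76. Limma called *HSP12*, *ALD3* and *SSA4* higher and none lower (against 5.06% and 5.82% of all genes). Every Malaysian strain lay above both wine/European strains for 10 of the 18 (against 26.5% of all genes) and below them for 1 (against 22.4%), and 7 overlapped. BC187 was the lowest of the 5 strains for 17 of them, a count not made over all genes, whereas *HSP26* and *HSP104* were highest in RM11-1. *HSP12*, which encodes a small membrane-protecting stress protein, was at 12567, 8152 and 13554 in the Malaysian strains and at 2274 and 2699 in the wine/European strains (log2 difference 2.17, SE 0.24, limma adjusted *P* = 0.00882). Between alleles in the hybrids the list median was 0.11. With the alleles unpaired, limma called none of the 18, of which 2 were higher and 1 lower at an unadjusted *P* under 0.05, whereas with the alleles paired it called *GPH1* and *GLK1* higher. The shares of all genes called higher and lower were 2.07% and 2.63% unpaired, and 9.01% and 8.87% paired. The part of the stress genes' common change in the *CTT1* result was not tested.

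**Figure D2:**
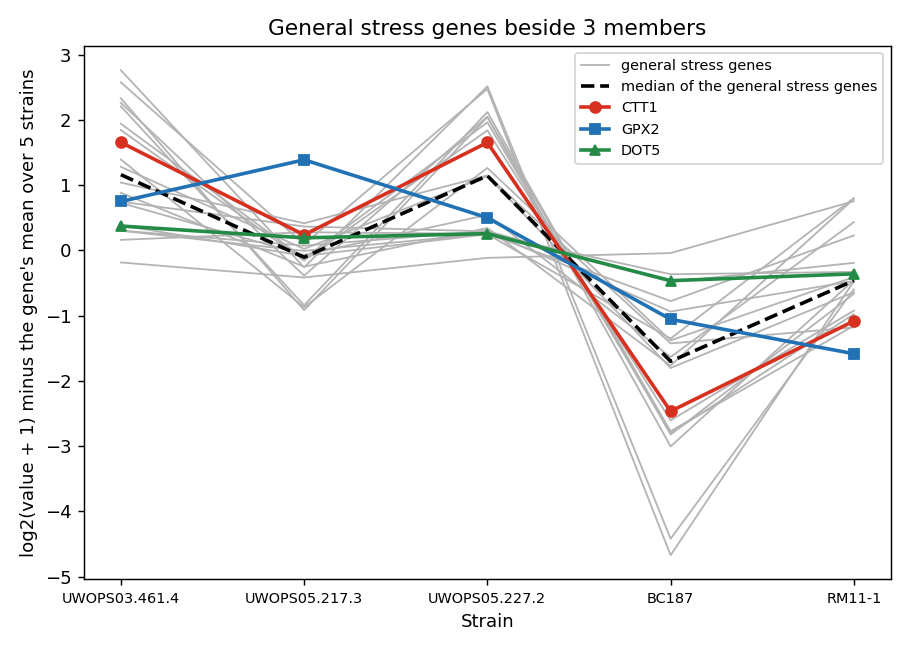
Log2(value + 1) minus each gene's mean over the 5 parents, with 1 grey line per general stress gene, their median dashed, and *CTT1*, *GPX2* and *DOT5* in colour. *CTT1* followed the median of the stress genes, lowest in BC187 and lower in UWOPS05.217.3 than in the other Malaysian strains, while *GPX2* was highest in UWOPS05.217.3.

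The peroxisomal catalase *CTA1* (YDR256C, chromosome IV) was at 1430, 1553 and 1449 in the Malaysian strains and at 1674 and 1742 in BC187 and RM11-1, a log2 difference of -0.21 that did not pass the test (limma adjusted *P* = 0.232). The ratio of *CTT1* to *CTA1* per base of coding sequence was 2.39, 0.822 and 2.35 in the Malaysian strains and 0.117 and 0.293 in the wine/European strains, so the groups did not overlap. Of 13 other oleate and peroxisome genes, with which *CTA1* is induced on fatty acids, limma called *FOX2* and *PXA2* higher in the Malaysian strains and none lower, and the list median was -0.05. Between paired alleles it called *ECI1* higher and *POT1* lower. The shares of all genes called higher and lower were 5.06% and 5.82% in the parents, and 9.01% and 8.87% between paired alleles. *CCP1* (YKR066C, chromosome XI) encodes the mitochondrial cytochrome c peroxidase. Its parental values of 13229, 10026 and 11029 against 12639 and 15550 overlapped. Within each hybrid, in contrast, the Malaysian *CCP1* allele was the lower one, at 3617 against 5047 in YHL058, 2950 against 4112 in YHL063 and 2105 against 3246 in YHL065. Over the 3 hybrids the allele values overlapped, because the sum of both alleles was 8664 in YHL058 and 5351 in YHL065. The log2 allelic ratio of -0.53 had a limma adjusted *P* of 0.346 without pairing and 0.0107 with the alleles paired by hybrid, and the paired call was lost without YHL063 (limma adjusted *P* = 0.101).

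The superoxide dismutases act one step earlier. *SOD2* (YHR008C, chromosome VIII), the manganese enzyme of the mitochondrial matrix, was at 19703, 24811 and 20370 in the Malaysian strains and at 12393 and 14781 in the wine/European strains. The groups did not overlap, and the log2 difference of 0.67 (SE 0.15) lay just beyond the threshold (limma adjusted *P* = 0.0511, and 0.0466 without RM11-1). The Malaysian *SOD2* allele was also higher in each hybrid, at 6406 against 5101, 7177 against 6243 and 7933 against 5442, with a log2 ratio of 0.36 that did not pass without pairing (limma adjusted *P* = 0.243) or with it (0.0532). *SOD1* (YJR104C, chromosome X), the abundant cytosolic copper-zinc enzyme, was at 67104, 65509 and 64630 against 54370 and 58500. Its parental log2 difference was 0.22 (limma adjusted *P* = 0.246). Within the hybrids the Malaysian *SOD1* allele was lower in all 3, at 41999 against 45051, 33288 against 35185 and 29977 against 42631, with a mean log2 ratio of -0.23 (limma adjusted *P* = 0.69).

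Among the thioredoxin genes the populations were close. Thioredoxins are small dithiol proteins that reduce peroxiredoxins, methionine sulfoxide reductases and ribonucleotide reductase. The cytosolic *TRX1* (YLR043C, chromosome XII) and *TRX2* (YGR209C, chromosome VII) had overlapping parental values, from 17296 to 22485 and from 20808 to 25580, and log2 differences of -0.01 and 0.06. The coding sequences of this pair are 74% identical, with a longest shared run of 17 bases. In the hybrids the allelic ratios of *TRX1* were between -0.05 and 0.08 on the log2 scale, but both of its alleles were low in YHL065, at 2747 and 2606, against 7938 and 8206 in YHL058 and 7225 and 7389 in YHL063. The SE of the *TRX1* ratio was accordingly 0.58 with the alleles unpaired and 0.06 with them paired. *TRX2* alleles lay between 3448 and 5120 with no such drop. The mitochondrial thioredoxin *TRX3* (YCR083W, chromosome III) was at 4335, 5122 and 4335 against 3953 and 4322, a log2 difference of 0.15 that did not pass the test. Thioredoxin reductase, *TRR1* (YDR353W, chromosome IV), which reduces Trx1 and Trx2 with NADPH, was at 21477, 20523 and 19893 against 18266 and 15717. Every Malaysian value of *TRR1* was above the wine/European ones, and so was the Malaysian allele in each hybrid, with a log2 difference of 0.28 in the parents (limma adjusted *P* = 0.168) and 0.28 between alleles (limma adjusted *P* = 0.46 unpaired, 0.073 paired).

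Peroxiredoxins reduce peroxides with a reactive cysteine that thioredoxin then regenerates. *DOT5* (YIL010W, chromosome IX), which encodes the nuclear member of the family, was at 2454, 2165 and 2264 in the Malaysian strains and at 1373 and 1476 in the wine/European strains. The groups were separate, with a narrow spread inside each. The log2 difference was 0.69 (SE 0.11, limma adjusted *P* = 0.0208). The same direction was measured inside the hybrids, where the Malaysian allele of *DOT5* was at 647, 678 and 577 and the wine/European allele at 358, 357 and 272. Every Malaysian allele value was above every wine/European one, and the Malaysian allele held 64.4%, 65.5% and 68% of the gene's allele-assigned signal in turn. The log2 allelic ratio was 0.95 (SE 0.16, limma adjusted *P* = 0.0266 unpaired and 0.00696 paired). The paired call was lost without YHL063 (limma adjusted *P* = 0.088), the unpaired call when any 1 hybrid was left out (0.0892 to 0.385), and the parental call without UWOPS03.461.4 or UWOPS05.227.2 (0.121 and 0.111).

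The abundant peroxiredoxin *TSA1* (YML028W, chromosome XIII), which also acts as a chaperone, was nearly level among the parents, at 102070, 100305 and 100498 against 91779 and 90348. Its groups did not overlap, but the log2 difference was only 0.15 (limma adjusted *P* = 0.421). Inside the hybrids its Malaysian allele was the lower one, at 12730 against 19813 in YHL058, 25463 against 32486 in YHL063 and 21414 against 36139 in YHL065. YHL058 had the lowest value for each allele, so that the alleles overlapped across hybrids. The log2 ratio of -0.58 passed only with the alleles paired (limma adjusted *P* = 0.482 unpaired, 0.0319 paired), and that call was lost when any 1 hybrid was left out (0.0853 to 0.0951). The less abundant paralog *TSA2* (YDR453C, chromosome IV), 78.5% identical in coding sequence, was at 751, 730 and 827 against 641 and 663 in the parents (log2 difference 0.24) and had allelic ratios of 0.15, -0.06 and -0.15 in the hybrids. *TSA1* exceeded *TSA2* per base by 122-fold to 143-fold in the 5 parents.

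For *PRX1* (YBL064C, chromosome II), the mitochondrial peroxiredoxin, the Malaysian values of 3644, 2758 and 3340 were above the wine/European values of 1294 and 2445. The log2 difference of 0.86 (SE 0.29) did not pass the test (limma adjusted *P* = 0.121), and the wine/European strains themselves differed 1.89-fold. Without RM11-1, the higher of them, the difference was 1.32 and the limma adjusted *P* 0.0203. In the hybrids the *PRX1* alleles were close, with log2 ratios of 0.17, 0.28 and 0.17. *AHP1* (YLR109W, chromosome XII), the cytosolic alkyl hydroperoxide reductase, overlapped between populations, at 69517, 78930 and 70405 against 82116 and 74992, and its allelic ratios were 0.11, 0.17 and 0.18.

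*GPX2* showed the largest difference of the 32 genes that was measured both between populations and between alleles. *GPX2* (YBR244W, chromosome II, coding bases 707528 to 708016 of the R64 assembly) encodes a phospholipid hydroperoxide peroxidase of the glutathione peroxidase family. Its values were 26242 in UWOPS03.461.4, 40869 in UWOPS05.217.3, 22096 in UWOPS05.227.2, 7505 in BC187 and 5206 in RM11-1. The lowest Malaysian strain thus lay well above the highest wine/European strain, and UWOPS05.217.3 stood above the other Malaysian strains by 0.76 on the log2 scale. The log2 difference was 2.20 (SE 0.30, limma adjusted *P* = 0.015), a 4.68-fold ratio of the means, and ranged from 1.56 to 2.97 over the 6 pairs of a Malaysian with a wine/European strain. Among the alternatives run, the call was lost only without UWOPS03.461.4 (limma adjusted *P* = 0.0658), with a difference of 2.27.

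The alleles were split in the same direction. Malaysian *GPX2* alleles were at 14543 (YHL058), 6297 (YHL063) and 5663 (YHL065), and their wine/European counterparts at 2783, 1456 and 1248. Every Malaysian allele value lay above every wine/European one. Both alleles were highest in YHL058, whose allele sum of 17326 compared with 7753 in YHL063 and 6911 in YHL065. The Malaysian allele nevertheless held a similar part of the signal in each hybrid, 83.9%, 81.2% and 81.9%. The log2 allelic ratio was 2.23, with an SE of 0.45 when alleles were taken as independent and 0.07 when they were paired by hybrid (limma adjusted *P* = 0.0469 and 0.00122). The unpaired call was close to the threshold and was lost when YHL063 or YHL065 was left out (0.43 and 0.209), with median-ratio rescaling (0.0536), with quantile normalization (0.0513) and without the mean-variance trend (0.0587). The paired call passed with each hybrid left out in turn, at limma adjusted *P* values of 0.00154, 0.0281 and 0.01. The parental difference and the allelic ratio, on their separate scales, were 2.20 and 2.23.

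The other glutathione peroxidases differed less. *HYR1* (YIR037W, chromosome IX), also known as *GPX3*, the peroxide sensor that passes oxidation to Yap1, was at 8559, 7689 and 8453 against 6715 and 6938. Its log2 difference was 0.27 in the parents (limma adjusted *P* = 0.147) and 0.16 between alleles, the Malaysian allele being higher in each hybrid. *GPX1* (YKL026C, chromosome XI) was at 833, 711 and 865 against 467 and 653, with a log2 difference of 0.53 that did not pass (limma adjusted *P* = 0.136, 0.0477 under quantile normalization and 0.0441 without RM11-1) and allelic ratios of 0.16, 0.25 and 0.11. Per base of coding sequence, *GPX2* exceeded *HYR1* by 3.08-fold, 5.35-fold and 2.63-fold in the Malaysian strains, and the ratio was 1.12 and 0.755 in BC187 and RM11-1. The coding sequences of *GPX2* and *HYR1* are 70.3% identical and share runs of at most 23 bases, and no 100-base window of any of the 32 coding sequences occurs elsewhere in the reference genome.

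**Figure D3:**
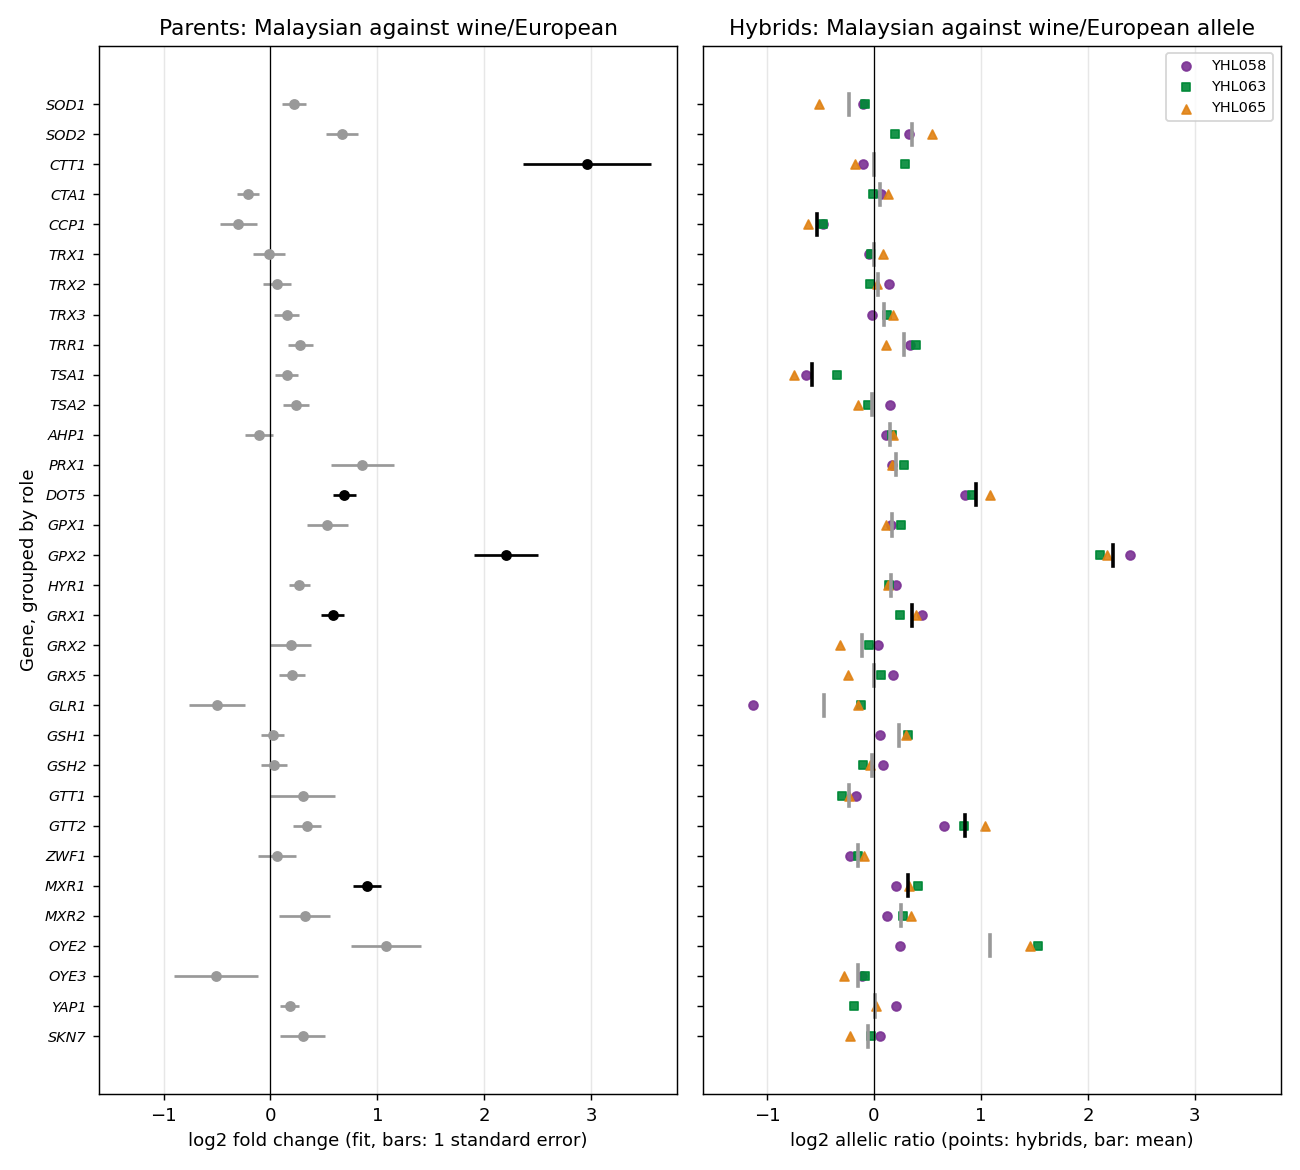
Left, log2 difference between Malaysian and wine/European parents with 1 SE for each gene, black where the limma adjusted *P* was under 0.05. Right, log2 ratio of the Malaysian to the wine/European allele in each hybrid (points) and their fitted mean (bar, black where the paired adjusted *P* was under 0.05); *GPX2* lay at 2.20 on the left and at 2.39, 2.11 and 2.18 on the right, while *CTT1* lay at 2.96 and near 0.

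Glutaredoxins reduce disulfides and glutathionylated proteins with glutathione as the electron donor. *GRX1* (YCL035C, chromosome III) was at 9510, 8481 and 9738 in the Malaysian strains and at 6498 and 5896 in the wine/European strains, without overlap (log2 difference 0.58, SE 0.11, limma adjusted *P* = 0.0355). The Malaysian *GRX1* allele was higher in each hybrid, at 2590 against 1894, 2426 against 2049 and 2690 against 2046. This smaller log2 ratio of 0.36 passed with the alleles paired (limma adjusted *P* = 0.0282) and not without (0.115), and the paired call was lost when any 1 hybrid was left out (0.0785 to 0.126). The parental call was lost without UWOPS03.461.4, UWOPS05.227.2 or RM11-1 (0.162, 0.165 and 0.062). Its paralog *GRX2* (YDR513W, chromosome IV) overlapped, at 7591, 5823 and 7006 against 5006 and 7048, and its allelic ratios were 0.04, -0.05 and -0.32. *GRX5* (YPL059W, chromosome XVI), a mitochondrial monothiol glutaredoxin of iron-sulfur cluster assembly, was at 5738, 5512 and 5725 against 4451 and 5471. Its lowest Malaysian value exceeded RM11-1 by little, the log2 difference was 0.20 (limma adjusted *P* = 0.326), and the allelic ratio averaged 0.00.

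Glutathione is built by *GSH1* (YJL101C, chromosome X), the rate-limiting ligase, and *GSH2* (YOL049W, chromosome XV), the synthetase. Neither differed between the populations by more than the strains did among themselves. *GSH1* was at 5358, 6047 and 5222 against 5442 and 5443, and *GSH2* was at 7875, 7084 and 7933 against 6971 and 8005, with log2 differences of 0.02 and 0.03. The Malaysian *GSH1* allele was higher in each hybrid, by 0.06, 0.32 and 0.30 on the log2 scale, which did not pass with pairing (limma adjusted *P* = 0.104).

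*GLR1* (YPL091W, chromosome XVI), glutathione reductase, was set apart by 1 wine/European strain. It was at 6630, 6690 and 7307 in the Malaysian strains, at 7186 in BC187 and at 13194 in RM11-1. BC187 lay inside the Malaysian range and RM11-1 was 1.84-fold above BC187, so that the log2 difference of -0.50 did not pass the test (limma adjusted *P* = 0.253). With RM11-1 as the only wine/European strain it was -0.94 and passed (limma adjusted *P* = 0.0174). The hybrid with the RM11-1 allele also stood apart. The Malaysian allele of *GLR1* was at 2383, 1149 and 1227 and the wine/European allele at 5224, 1249 and 1358. The log2 allelic ratio was -1.13 in YHL058 and -0.12 and -0.15 in the hybrids of BC187. Its mean over the 3 hybrids was -0.47 (SE 0.60 unpaired, limma adjusted *P* = 0.842 unpaired, 0.226 paired). The Malaysian *GLR1* allele in YHL058 was itself above the Malaysian allele in the other two hybrids.

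The glutathione transferases conjugate glutathione to toxic compounds. *GTT2* (YLL060C, chromosome XII) was at 686, 636 and 619 in the Malaysian strains and at 502 and 520 in the wine/European strains, without overlap, and its log2 difference of 0.34 did not pass (SE 0.13, limma adjusted *P* = 0.143). Between alleles the difference was larger. The Malaysian *GTT2* allele was at 191, 225 and 268 and the wine/European one at 121, 125 and 130, again without overlap, and the log2 ratio was 0.85 (SE 0.18). The limma adjusted *P* was 0.0531 unpaired, 0.0445 with median-ratio rescaling, 0.0401 without the mean-variance trend and 0.0193 paired, and the paired call was lost without YHL063 (0.149). *GTT1* (YIR038C, chromosome IX), an enzyme of the endoplasmic reticulum, was at 2144, 1669 and 2143 against 1155 and 2207. Here BC187 alone was low, and RM11-1 was 1.91-fold above it. The Malaysian *GTT1* allele was the lower one in each hybrid, by -0.17, -0.30 and -0.23 on the log2 scale (limma adjusted *P* = 0.546 unpaired, 0.0845 paired).

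*ZWF1* (YNL241C, chromosome XIV), glucose-6-phosphate dehydrogenase, supplies NADPH to both thiol systems. Its parental values overlapped, at 22635, 21751 and 20649 against 17180 and 25023. The allelic ratios were -0.22, -0.15 and -0.09, and the Malaysian allele was lower in each hybrid without passing the test (limma adjusted *P* = 0.703 unpaired, 0.121 paired). Around it, 14 other genes of NADPH supply had a median log2 difference of 0.09, with *TKL1* called higher and *GND2* lower. Between paired alleles limma called *TAL1* and *RPE1* higher and *GND2* and *SOL3* lower (adjusted *P* = 0.0118, 0.0442, 0.00796 and 0.00957). The shares of all genes called higher and lower were 5.06% and 5.82% in the parents, and 9.01% and 8.87% between paired alleles. *TKL1*, the main transketolase of the pentose phosphate pathway, was at 1090873, 991237 and 1028174 in the Malaysian strains and at 242297 and 246692 in the wine/European strains (log2 difference 2.08, limma adjusted *P* = 0.00319). *GND2*, the minor 6-phosphogluconate dehydrogenase, was lower between populations by -0.87 and between alleles by -1.51 on the log2 scale (limma adjusted *P* = 0.0347 and 0.0411).

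Methionine sulfoxide reductases repair oxidized methionine. *MXR1* (YER042W, chromosome V), which acts on the S form, was at 8720, 10318 and 8218 in the Malaysian strains and at 4692 and 4999 in the wine/European strains. The groups did not overlap, and the log2 difference was 0.90 (SE 0.13, limma adjusted *P* = 0.017). Between alleles the direction was the same and the size smaller, at 3462 against 2995 in YHL058, 3522 against 2659 in YHL063 and 3538 against 2808 in YHL065, a log2 ratio of 0.32 (SE 0.10 unpaired, limma adjusted *P* = 0.156 unpaired and 0.0358 paired). The paired *MXR1* call was lost without YHL063 or YHL065 (0.218 and 0.093), and the parental call without UWOPS03.461.4 or UWOPS05.227.2 (0.0873 and 0.0667). *MXR2* (YCL033C, chromosome III), the mitochondrial enzyme for the R form, was at 3781, 3959 and 3875 against 2346 and 4084. Only BC187 lay low, and without RM11-1 the log2 difference of *MXR2* was 0.72 (limma adjusted *P* = 0.0204), compared with 0.32 (0.401) over all 5 strains. Its Malaysian allele was higher in all 3 hybrids, by 0.12, 0.27 and 0.35.

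The old yellow enzymes are NADPH oxidoreductases of small unsaturated carbonyl compounds. *OYE2* (YHR179W, chromosome VIII) was at 17391, 27379 and 18974 in the Malaysian strains, at 7199 in BC187 and at 13559 in RM11-1. All Malaysian strains lay above both others, but the wine/European strains differed 1.88-fold, and the log2 difference of 1.08 (SE 0.33) did not pass (limma adjusted *P* = 0.0966, and 0.0333 without RM11-1). The allele values of *OYE2* differed in the same way. The Malaysian allele was at 4542, 5025 and 4642 in YHL058, YHL063 and YHL065, nearly level, whereas the wine/European allele was at 3846 where it came from RM11-1 and at 1739 and 1682 where it came from BC187. The log2 allelic ratio was 0.24 in YHL058 and 1.53 and 1.46 in the BC187 hybrids, with a mean of 1.08 (limma adjusted *P* = 0.143 unpaired, 0.0677 paired). Without YHL058 the ratio passed in both fits (0.0109 unpaired, 0.00255 paired). *OYE3* (YPL171C, chromosome XVI), 73.5% identical to *OYE2* in coding sequence, was at 61, 90 and 55 against 76 and 122, a log2 difference of -0.51 that did not pass (SE 0.39, limma adjusted *P* = 0.413). Its alleles lay between 25 and 45 in the hybrids. *OYE2* exceeded *OYE3* per base by 285-fold, 304-fold and 345-fold in the Malaysian strains and by 94.7-fold and 111-fold in BC187 and RM11-1.

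Neither regulator passed the test. *YAP1* (YML007W, chromosome XIII) was at 4988, 5058 and 4920 against 4369 and 4416. The strains within each population lay close together and the groups did not overlap, with a log2 difference of 0.18 (SE 0.09) that did not pass the test (limma adjusted *P* = 0.232). *SKN7* (YHR206W, chromosome VIII) was at 4626, 7165 and 4833 against 4552 and 4300, so UWOPS05.217.3 stood above the other 4 strains. The log2 allelic ratios were 0.21, -0.19 and 0.02 for *YAP1* and 0.06, -0.03 and -0.22 for *SKN7*. Of 10 Yap1 targets outside the 32 genes, limma called *GRE2*, *AAD6* and *AAD14* higher and *ATR1*, *YCF1* and *FRM2* lower in the Malaysian parents, with a list median of 0.07. The shares of all genes called there were 5.06% higher and 5.82% lower. Between paired alleles limma called *YCF1*, *AAD6*, *AAD14* and *ECM4* higher and *FRM2* lower (against 9.01% and 8.87% of all genes). *YCF1* was thus called lower in the parents and higher between alleles. *AAD6*, a putative aryl-alcohol dehydrogenase gene, was at 302, 202 and 225 against 39 and 23, and its log2 difference of 2.96 in the parents and 2.77 between alleles passed in both (limma adjusted *P* = 0.0101 and 0.00834). *FRM2*, a nitroreductase-like gene, was lower by -0.86 and -4.45 (0.0384 and 0.00096).

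Taken over all 32 genes, fewer differences passed between alleles than between populations when alleles were unpaired. Limma called *GPX2* and *DOT5* higher for the Malaysian allele (6.25% of members, against 2.07% of the 5738 genes tested) and no member lower (against 2.63%). At an unadjusted limma *P* under 0.05, 7 members were higher and 0 lower, with no share of all genes computed. With the alleles paired by hybrid it called 5 higher, *GPX2*, *GRX1*, *DOT5*, *GTT2* and *MXR1* (15.6%, against 9.01% of all genes), and 2 lower, *CCP1* and *TSA1* (6.25%, against 8.87%). Without YHL065, the shallowest hybrid, the paired fit called 4 of these 7, *GPX2*, *DOT5* and *GTT2* higher and *CCP1* lower, and the unpaired calls of *GPX2* and *DOT5* were lost (limma adjusted *P* = 0.209 and 0.0892). The Malaysian allele was higher in all 3 hybrids for 14 members (43.8%, against 29.3% of all genes) and lower in all 3 for 7 members (21.9%, against 28.1%). The median log2 allelic ratio was 0.05 over the members and 0.00 over all genes. *GPX2*, *GRX1*, *DOT5* and *MXR1* were called higher in the parents and for the Malaysian allele in the paired fit.

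**Figure D4:**
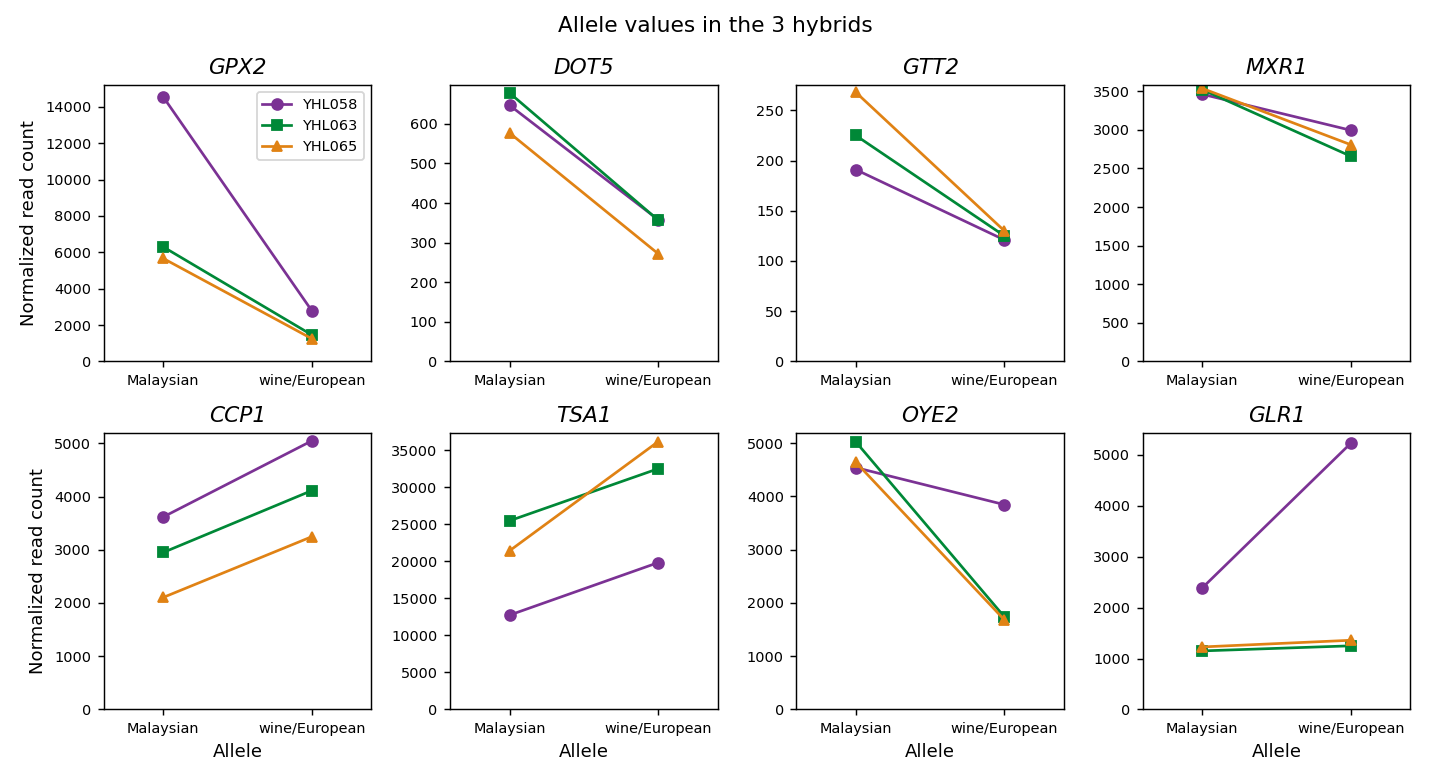
Normalized read counts of both alleles of 8 genes, with a line for each hybrid and each axis starting at 0. The Malaysian allele was higher in every hybrid for *GPX2*, *DOT5*, *GTT2*, *MXR1* and *OYE2* and lower in every hybrid for *CCP1*, *TSA1* and *GLR1*, and YHL058 stood apart for *OYE2* and *GLR1*.

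Strains within the wine/European population differed in several members. RM11-1 exceeded BC187 by 1.5-fold or more for 7 members, *CTT1*, *PRX1*, *GLR1*, *GTT1*, *MXR2*, *OYE2* and *OYE3* (21.9%, against 12.5% of all genes), and BC187 exceeded RM11-1 by that factor for none (against 5.58%). These are differences between single libraries, with no test. When the wine/European parent of the hybrid changed from RM11-1 in YHL058 to BC187 in YHL063, with UWOPS03.461.4 kept, the allelic ratio changed by 1.5-fold or more for *GLR1* and *OYE2* alone (6.25% of members, against 7.01% of all genes). The log2 ratio was higher in YHL063 by 1.01 for *GLR1* and by 1.29 for *OYE2*. *CTT1*, with the largest difference between the wine/European parents (1.38 on the log2 scale), changed by 0.39, and *PRX1*, *GTT1* and *MXR2*, with parental differences of 0.92, 0.93 and 0.80, changed by 0.11, -0.13 and 0.15. When the Malaysian parent changed from UWOPS03.461.4 in YHL063 to UWOPS05.217.3 in YHL065, no member's allelic ratio changed by 1.5-fold (against 9.6% of all genes), and the largest changes were -0.46 for *CTT1*, -0.43 for *SOD1* and -0.40 for *TSA1*.

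**Figure D5:**
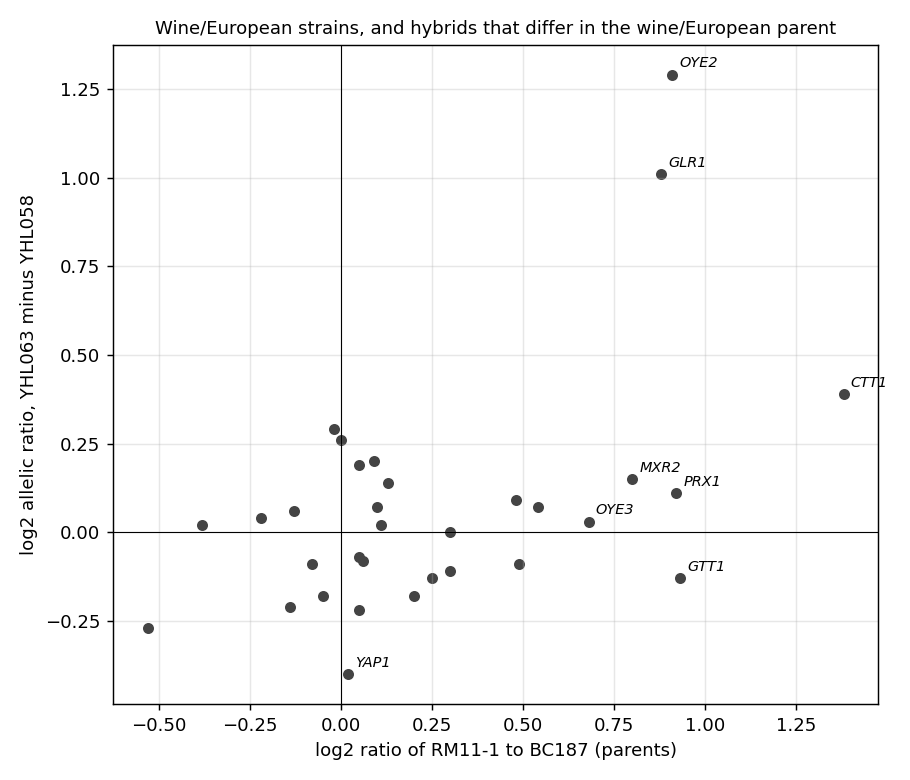
Each point is 1 of the 32 genes, with the log2 ratio of RM11-1 to BC187 in the parents on the horizontal axis and the change in log2 allelic ratio from YHL058 to YHL063 on the vertical axis. *OYE2* and *GLR1* lay at 0.91 and 0.88 on the horizontal axis and at 1.29 and 1.01 on the vertical axis, while *PRX1*, *GTT1* and *MXR2* were far to the right and at 0.11, -0.13 and 0.15 in height, and *CTT1*, farthest right, was at 0.39.

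Within the Malaysian population UWOPS03.461.4 and UWOPS05.227.2 were close, differing by at most 0.26 on the log2 scale in any member, the value for *CCP1*. UWOPS05.217.3 differed more, with log2 deviations from the mean of the other two of 0.76 for *GPX2*, 0.63 for *OYE3*, 0.60 for *SKN7*, 0.59 for *OYE2* and -1.42 for *CTT1*. YHL065, the hybrid with UWOPS05.217.3 as a parent, was not above the others for *GPX2*, whose alleles were lowest there.

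The whole series bears on these values in a few ways. Column sums after normalization were 63253487 to 67038479 in the parents and 18739636 to 20966132 per allele in the hybrids, so depth cannot be read from the values themselves. Illumina sequencers of 2 models were used, and which library ran on which is not given in the sources used here, so an effect of the instrument was not tested. Hybrid reads were assigned only where the parental genomes differ, so allele values of different genes rest on different parts of them and were not compared. The positions that differ can also change with the parents of a hybrid. A gene's allele values and allele sums, where set side by side between hybrids above, can therefore hold a difference in the positions counted, which was not tested. The Malaysian allele of *ACT1*, a gene outside the list, was at 136330 in YHL058, 79873 in YHL063 and 165524 in YHL065. Its wine/European allele was at 348369, 90224 and 388493 in the same order. The *ACT1* alleles were thus closest in YHL063, and the reason was not tested. The protocol does not describe a strand-marking step, and sense and antisense reads of a gene cannot be told apart. As a check of the labels, *HO* was at 0 in RM11-1, which carries ho::kanMX, and between 51 and 127 in the other parents, while *URA3* was at 101 in RM11-1 and at 21 to 32 in the others and so did not mark the *ura3* label. In the hybrids the *HO* alleles lay between 0 and 8, and in YHL058 the wine/European allele was at 5 and the Malaysian allele at 4, so *HO* did not mark the RM11-1b allele there. In a bulk culture, fewer cells that express a gene and less RNA per cell cannot be told apart.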

How the data were processed

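Gene-level RNA-seq values were taken from tables for 5 parental strains and for the 6 alleles of 3 hybrids. The authors mapped reads with Bowtie 0.12.7 to SNP-amended strain genomes, kept unique reads without mismatch, summed them per gene and normalized them with EDASeq (upper quartile between lanes, loess on GC content). The paper reports that mapping to genomes without the amendment left fewer genes different between parents and no gene different between alleles. How far the allelic calls given here depend on the amended genomes was not tested. The study's file legends call the deposited columns raw counts, but their upper quartiles were equal within each table (6442 in all parents, 2010 for all alleles), so they were taken as normalized, rounded counts and treated as a score, so no count model was run and counting error could not be computed. The tables' columns of means, fold changes and *P* values from DESeq hold the study's own comparisons and were not used.

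Values were tested as log2(value + 1) with limma 3.58.1 in R 4.3.3 (lmFit, eBayes with trend, Benjamini-Hochberg over all genes) after dropping genes whose mean value was under 10, which left 5792 for the parents and 5738 for the alleles. The unpaired fit was tested on simulated data with independent noise in every column, and the paired fit was not. Alleles were also paired by hybrid: both come from 1 culture, and their deviations correlated at 0.67, 0.54 and 0.48 in the 3 hybrids. With 1 culture per strain, *P* values in the parents measure the spread between strains, culture differences included. Those between alleles measure the spread between 3 hybrids that share parents, so the same parental allele enters more than 1 hybrid. A fit without 1 strain of a population assumes that a lone strain varies like the other group. The alternatives were pseudocounts of 0.5 and 10, a mean of at least 100, no filter, median-ratio rescaling, quantile normalization, no trend and leaving out each strain or hybrid. The paired fits that leave out a hybrid were chosen after seeing the data.

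The members and gene lists were chosen with earlier results of these data known. All 32 members were given values. For members past the threshold in a table, and the 3 others with the largest change in it, the log2 difference and limma adjusted *P* in that table were given. The SE was given for most of them. List genes were named where they passed the threshold. Of the 5797 identifiers, 5792 matched the S288C R64 annotation of NCBI RefSeq, which gave symbols, positions and promoter windows. The 100 bases next to each start codon were left out of the windows.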

Additional observations from a re-analysis of the deposited data

Results flagged for a closer look

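*SOD1* and *TSA1* lay in opposite directions between parents and between alleles: every Malaysian parent lay above both wine/European parents, and the Malaysian allele was the lower one in all 3 hybrids, with log2 allelic ratios of -0.23 for *SOD1* and -0.58 for *TSA1*. The parental log2 differences were 0.22 and 0.15 and did not pass the limma test. The allelic ratio of *SOD1* passed neither fit (limma adjusted *P* = 0.69 unpaired, 0.268 paired), and was -0.10, -0.08 and -0.51 in the 3 hybrids. That of *TSA1* passed only with pairing (0.482 unpaired, 0.0319 paired), and the call was lost when any 1 hybrid was left out. The share of all genes with such opposite directions was not computed. The difference between the parental and allelic values was not tested, since the tables were normalized separately.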

How the results depend on the processing

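Leaving out 1 strain moved the number of members called in the parents between 0 and 9 (main count 5), and of all genes between 107 and 1011 (630). For the alleles, the replicate block that paired them by hybrid gave 7 members and 1026 genes against 2 and 270 unpaired, and quantile normalization gave 1 member. Without pairing, leaving out a hybrid gave 0 to 2 members and 12 to 155 genes. With pairing it gave 1 to 6 members and 55 to 710 genes, fewer than the 7 and 1026 of the full paired fit. The member median without a hybrid was 0.06 to 0.09 in either fit (main 0.05), and quantile normalization gave a median of 0.03. The block changed no other member's call than those named in the results. Directions turned only for members with no call. In the parents, leaving out a strain gave -0.06 to 0.43 for *GRX2*, -0.16 to 0.77 for *GTT1*, -0.08 to 0.72 for *MXR2*, -0.21 to 0.33 for *ZWF1*, -0.20 to 0.18 for *TRX1*, -0.03 to 0.12 for *TRX2*, -0.04 to 0.06 for *GSH1* and -0.07 to 0.13 for *GSH2*. Quantile normalization gave 0.01 for *TRX1* and 0.00 for *AHP1*, and median-ratio rescaling gave -0.00 for *GSH1*. Between alleles, leaving out a hybrid gave -0.14 to 0.09 for *CTT1*, -0.09 to 0.12 for *GRX5*, -0.07 to 0.02 for *GSH2*, -0.12 to 0.01 for *SKN7*, -0.04 to 0.02 for *TRX1*, -0.01 to 0.09 for *TRX2*, -0.11 to 0.04 for *TSA2* and -0.09 to 0.11 for *YAP1*, and quantile normalization gave -0.02 for *GRX5* and 0.02 for *TSA2*. Pseudocounts, the filters and the trend changed no call in the parents. The strains per group and the lack of raw counts limit the precision.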

Other observations

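Of 17 other thiol redox genes, limma called none in the parents (2 higher and 2 lower at an unadjusted *P* under 0.05), and their median log2 difference was 0.01. Over all genes, 5.06% were called higher and 5.82% lower in the parents. Between alleles, *CCS1*, the copper chaperone of Sod1, was called higher for the Malaysian allele at 0.56 on the log2 scale (limma adjusted *P* = 0.0411 unpaired, 0.0184 paired), while in the parents it was at 5474, 4999 and 5253 in the Malaysian strains and at 8251 and 6643 in the wine/European strains (log2 difference -0.50, limma adjusted *P* = 0.0675). The paired fit also called *GRX4*, *ECM4* and *GTO1* higher and no gene of the list lower. Over all genes, the paired fit called 9.01% higher and 8.87% lower. *GRX4*, a nuclear monothiol glutaredoxin that takes part in iron signalling, was at 7844, 4681 and 8218 against 3804 and 3308 in the parents, without overlap (log2 difference 0.92, limma adjusted *P* = 0.0883).

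Of 10 genes derepressed without glucose, limma called *ICL1* and *CIT2* lower in the Malaysian parents and none higher, with a list median of 0.37. *CIT2*, the peroxisomal citrate synthase, was lower by -1.01 on the log2 scale in the parents (limma adjusted *P* = 0.0497) and higher by 0.69 between alleles in the paired fit (0.0148). The paired fit also called *ADH2* higher. Over all genes, the shares called higher and lower were 5.06% and 5.82% in the parents, and 9.01% and 8.87% between paired alleles. Of 11 Hap1 and heme-regulated genes, limma called *ERG11*, lanosterol demethylase, lower in the Malaysian parents (53168, 43663 and 56982 against 160834 and 169683, log2 difference -1.70, adjusted *P* = 0.00489) and none higher, with a list median of 0.45, and it called *QCR2* higher between paired alleles.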
